A study of Mus musculus with 6 samples.

Results

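The fibroblast growth factor (FGF) genes were followed here in whole pancreata of mouse embryos at E13.5, a stage at which the pancreatic epithelium branches into its mesenchyme. The group was chosen by name, with earlier results of these data known. It held 22 ligand and intracellular FGF genes, 5 receptors, the coreceptors Kl and Klb, the adaptors Frs2 and Frs3, and the binding proteins Fgfbp1 and Fgfbp3. Of these 33 genes, 32 had an array row with a single gene symbol and were tested among 19938 genes, each of the 32 with exactly 1 row, and Frs2 is not analysed here. RNA from 3 pancreata was pooled for each sample, and 3 control pools, labelled wild type, were compared with 3 mutant pools (genotype Pdx1-Cre; Ctnnb1 tm1Mmt/+), each on 1 Affymetrix Mouse Gene 1.0 ST array. In the mutants, Cre driven by the Pdx1 promoter removes the floxed exon 3 of 1 copy of the β-catenin gene and leaves a protein that escapes degradation. This promoter is active in the pancreatic epithelium, whereas each pool held epithelium and mesenchyme together.

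FGF ligands are secreted proteins that bind receptor tyrosine kinases together with heparan sulfate, or with a klotho protein in the case of the hormone-like ligands. The receptors act through the Frs2 adaptor and the ERK kinases, and the cell answers with Etv transcription factors and with inhibitors that feed back on the pathway. In the pancreas, Fgf10 is made by the mesenchyme and acts on the epithelial form of Fgfr2, and it keeps progenitors of the early epithelium dividing. In the gut, Fgf10 and Fgf9 take part in the exchange of signals between mesenchyme and epithelium.

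The FGF genes moved in both directions. Values are array levels on a log2 scale, changes are mutant minus control, and an error after ± is the standard error of the change from limma with 3 pools per genotype. At an adjusted p under 0.05 from limma, 6 of the 32 genes rose and 8 fell in the mutant pools, and 18 did not pass. Of all 19938 genes tested, 14.1% passed, 6.59% upward and 7.53% downward. The genes that rose were all paracrine ligands, and those that fell included 3 receptors and the coreceptor Klb. Only 4 of the 14 changed at least 2-fold, Fgf3 and Fgf10 upward and Fgfr4 and Klb downward. The median log2 change of the 32 genes was -0.06, beside 0.03 for all genes. The mutant pools lay wholly above the control pools in 9 FGF genes and wholly below them in 9. Among all genes tested, groups did not overlap in 30.9%, with the mutant pools above in 16.9% and below in 13.9%.

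**Figure D1:**
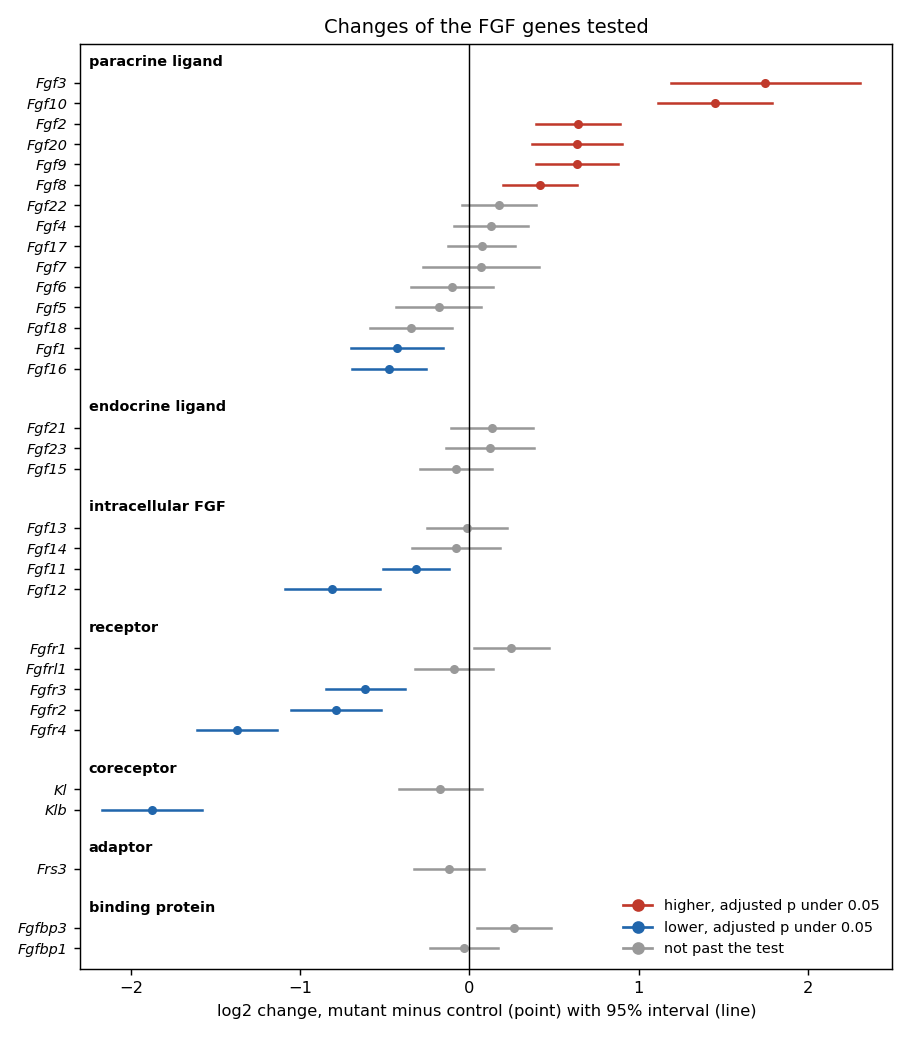
Log2 change, mutant minus control, of the 32 FGF genes tested, ordered by role. Points are estimates from 3 pools per genotype and lines their 95% intervals from limma. The 6 genes that rose (red) are all paracrine ligands, and the 8 that fell (blue) include Fgfr2, Fgfr3, Fgfr4 and Klb.

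The 15 paracrine ligands, which leave the cell and act on neighbouring cells, held 6 genes that rose, 2 that fell and 7 that did not pass. Fgf3 (array row 10559361), first known as a gene switched on in mouse mammary tumours and later as a ligand of ear and tail development, showed the largest increase of the 32. The control pools measured 5.61, 5.52 and 5.69 and the mutant pools 7.33, 6.74 and 8.0. The groups were far apart, and the mutant pools differed from each other by more than the 3 control pools did. The change was 1.75 on the log2 scale, or 3.36-fold (± 0.25, limma adjusted p = 0.000993).

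Fgf10 (array row 10407350), the mesenchymal ligand of the pancreatic bud, measured 6.35, 6.65 and 6.99 in controls and 8.17, 7.98 and 8.19 in mutants. Here the spread lay among the control pools, while the mutant pools were close to each other and above every control pool. The log2 change was 1.45, or 2.74-fold (± 0.15, limma adjusted p = 0.00013). Fgf7, which binds the same epithelial form of Fgfr2, had values of 4.23 to 4.67 in the control pools and 4.31 to 4.81 in the mutant pools (log2 change 0.07, 95% interval -0.27 to 0.41, adjusted p = 0.848). Fgf7 lay low on the arrays, where values may be near background and changes are understated, so its change cannot be set against that of Fgf10.

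The 250 bases before the start of Fgf3 and Fgf10 are printed because these ligands rose most. They are from RefSeq (GRCm38.p6), 5′ to 3′ on the strand of the gene, both on the plus strand, at chr7:144838362-144838611 and chr13:118714449-118714698. Capitals mark a match to any of 5 motifs searched on both strands.
Fgf3: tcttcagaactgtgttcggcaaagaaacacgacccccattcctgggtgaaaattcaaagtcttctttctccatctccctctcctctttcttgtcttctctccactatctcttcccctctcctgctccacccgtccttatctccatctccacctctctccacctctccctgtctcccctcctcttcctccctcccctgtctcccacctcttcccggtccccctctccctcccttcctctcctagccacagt
Fgf10: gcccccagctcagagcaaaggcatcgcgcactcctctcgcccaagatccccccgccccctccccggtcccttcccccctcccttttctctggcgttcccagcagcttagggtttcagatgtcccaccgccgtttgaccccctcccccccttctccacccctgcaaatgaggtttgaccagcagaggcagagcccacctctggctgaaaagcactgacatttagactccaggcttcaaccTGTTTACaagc
The motifs were CTTTGAT or CTTTGTT of the Tcf and Lef factors, which carry β-catenin on DNA, GTAAACA of forkhead factors, AAGGTCA of Nr5a2, CCGGAAG of ETS factors such as Etv4 and Etv5, and the TATA box TATAAA. The match in Fgf10 is the forkhead motif on the opposite strand, from 11 to 5 bases before the start, and 3.17% of all 32851 windows of this length hold it. The Fgf3 window held none of the letters searched. It does hold ttcaaag, which is CTTTGAA on the opposite strand, a related Tcf and Lef form that was not searched. The 2 Tcf and Lef forms searched stood in 1 of 33 windows of FGF genes, that of Fgf6, against 8.06% of all windows. Neither share covers other forms of this motif. These windows covered 26 of the 33 genes and 10 of the 14 that passed the test, and among these 10 only the Fgf10 window held a match. A match of letters is a description of the sequence and no measure of binding.

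The other ligands that rose did so by smaller amounts. Fgf2, a ligand without a classical signal peptide, went from 6.81, 7.08 and 7.19 to 7.69, 7.68 and 7.62 (0.64 ± 0.11 log2 units, limma adjusted p = 0.00327). Fgf9, a ligand of mesenchymal receptors in lung and gut, went from 7.54, 7.58 and 7.36 to 8.0, 8.10 and 8.29 (0.64 ± 0.11 log2 units, adjusted p = 0.00284). Its close relative Fgf20, known as a target of Wnt signaling in other tissues, went from 5.77, 5.83 and 5.85 to 6.51, 6.21 and 6.65 (0.64 ± 0.12 log2 units, adjusted p = 0.00492). In all of them each mutant pool lay above each control pool. Fgf8, a signal of limb, brain and mesoderm patterning, rose least, from 7.10, 7.18 and 7.17 to 7.42, 7.64 and 7.65 (0.42 ± 0.10 log2 units, adjusted p = 0.0168). Its call was lost without control replicate 1 or mutant replicate 3 (adjusted p up to 0.0705). In both Fgf3 and Fgf20, mutant replicate 3 was highest and mutant replicate 2 lowest.

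Fgf16, the remaining member of the Fgf9 subfamily, went the other way. The control pools measured 5.40, 5.65 and 5.48 and the mutant pools 5.07, 5.03 and 5.0, a fall of 1.39-fold (-0.48 ± 0.10 log2 units, limma adjusted p = 0.00838). Within this subfamily of 3 ligands, 2 rose and 1 fell. Fgf16 lay low on the arrays (mean of all pools 5.27), where values may be near background and changes are understated. The size of its change therefore cannot be set against that of Fgf9. Fgf1, which can bind all FGF receptors, measured 7.05, 7.15 and 7.16 in controls and 6.47, 6.93 and 6.68 in mutants (-0.43 ± 0.12 log2 units, adjusted p = 0.0422). The groups of Fgf1 did not overlap, but its call was lost without any 1 of 5 pools, mutant replicate 2 being the exception (adjusted p up to 0.172).

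**Figure D2:**
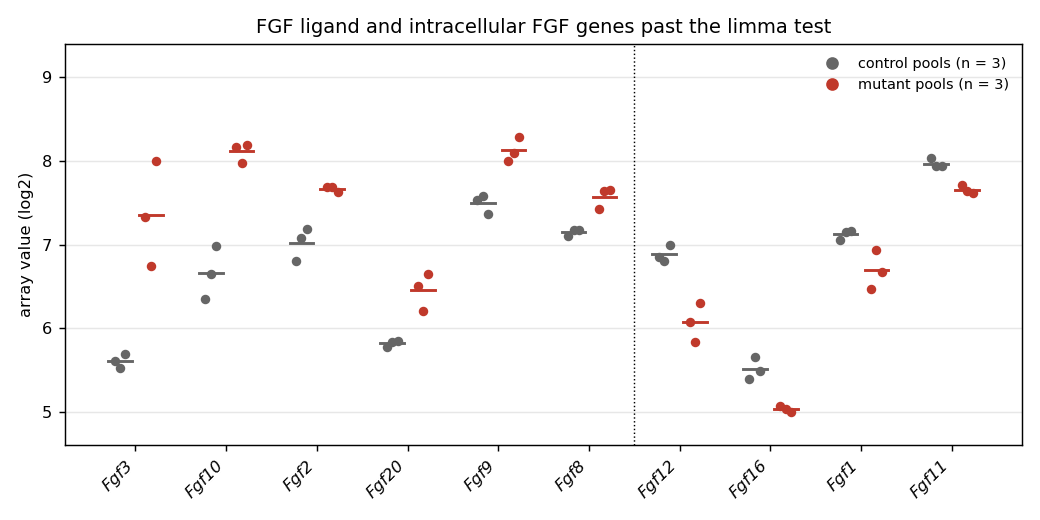
Array values (log2, vertical axis) of the ligand and intracellular FGF genes past the test. Each point is 1 pool, with controls in grey and mutants in red, horizontal bars are means of 3 pools, and genes left of the dotted line rose while those right of it fell. Fgf3 has the widest spread among mutant pools, from 6.74 to 8.0.

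Of the 7 paracrine ligands that did not pass, Fgf18, a ligand of cartilage and lung growth, came nearest. The control pools measured 8.40, 8.68 and 8.33 and the mutant pools 8.08, 8.16 and 8.14, without overlap (log2 change -0.35, 95% interval -0.59 to -0.10, adjusted p = 0.0649 from limma). It passed with arrays centred on the housekeeping genes, with dim genes left out, with a trended and robust prior and with array weights. Fgf22 also had groups that did not overlap (log2 change 0.17, adjusted p = 0.313). Fgf4, Fgf5, Fgf6, Fgf7 and Fgf17 had overlapping groups and log2 changes between -0.18 and 0.13. The endocrine ligands Fgf15, Fgf21 and Fgf23, which act as hormones of bile acid, energy and phosphate metabolism, had overlapping groups as well, with log2 changes of -0.08, 0.14 and 0.12.

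The intracellular FGFs, which bind sodium channels of excitable cells and are not secreted, held 2 genes that fell and 2 that did not pass. Fgf12 measured 6.85, 6.81 and 6.99 in controls and 6.08, 5.84 and 6.31 in mutants, a fall of 1.75-fold (-0.81 ± 0.13 log2 units, limma adjusted p = 0.00162). Fgf11 was 8.03, 7.94 and 7.94 against 7.71, 7.65 and 7.62 (-0.31 ± 0.09 log2 units, adjusted p = 0.0402), and its call was lost when any 1 of the 6 pools was left out (adjusted p from 0.0688 to 0.148). Fgf13 and Fgf14 had overlapping groups, with log2 changes of -0.01 and -0.08. Neural and glial genes moved beside Fgf12 and Fgf11. Of 13 tested, 10 fell and 1 rose, where 7.53% of all genes fell and 6.59% rose. The mean level of the 13 was 7.61 to 7.68 in the control pools and 6.82 to 6.89 in the mutant pools. Endocrine genes fell in 10 of 10, with a mean level of 9.4 to 10.00 against 6.57 to 6.61. Their part in the decrease of Fgf12 and Fgf11 was not tested, and in whole pancreata fewer cells of a type and less RNA per cell cannot be told apart.

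The receptors divided. Of the 4 receptors with a kinase, Fgfr2, Fgfr3 and Fgfr4 fell, and Fgfr1 did not pass. Fgfr4 (array row 10405380), in the liver the partner of Klb for the hormone Fgf15, measured 9.75, 9.65 and 9.46 in controls and 8.35, 8.20 and 8.17 in mutants. The highest mutant pool lay more than 1 log2 unit below the lowest control pool. The change was -1.38 on the log2 scale, a fall of 2.59-fold (± 0.11, limma adjusted p = 1.63e-05).

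Fgfr2 (array row 10568436), the receptor of Fgf10 in the pancreatic epithelium, measured 10.23, 9.93 and 10.01 in controls and 9.4, 9.08 and 9.33 in mutants. All mutant pools lay below all control pools, and the fall was 1.72-fold (-0.79 ± 0.12 log2 units, limma adjusted p = 0.00141). With 1 array value per gene, the epithelial and the mesenchymal splice form cannot be told apart. Fgfr3, best known for its part in cartilage growth, was 7.71, 7.40 and 7.44 against 6.90, 6.93 and 6.87, a fall of 1.53-fold (-0.61 ± 0.10 log2 units, adjusted p = 0.00276).

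Fgfr1, the receptor of most mesenchymal cells, measured 10.82, 10.62 and 10.59 in controls and 10.93, 10.86 and 11.00 in mutants. The groups did not overlap, but the change missed the threshold (log2 change 0.25, 95% interval 0.03 to 0.47, adjusted p = 0.146 from limma). The intervals of Fgfr2, -1.05 to -0.52, Fgfr3, -0.85 to -0.38, and Fgfr4, -1.61 to -1.14, all lie below that of Fgfr1. Fgfrl1, a receptor-like protein without a kinase, had overlapping groups of 10.30 to 10.56 and 10.21 to 10.38 (log2 change -0.09, 95% interval -0.32 to 0.14, adjusted p = 0.667).

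Klb (array row 10522127), the coreceptor of Fgf15 and Fgf21, fell most of all 32 genes. The control pools measured 7.64, 7.37 and 7.33 and the mutant pools 5.34, 5.76 and 5.61. The groups stood more than 1 log2 unit apart, and the fall was 3.67-fold (-1.87 ± 0.13 log2 units, limma adjusted p = 8.74e-06). Kl, the coreceptor of Fgf23, had overlapping groups of 5.23 to 5.59 and 5.17 to 5.32 (log2 change -0.17, 95% interval -0.42 to 0.07, adjusted p = 0.388). The ligands Fgf15 and Fgf21 of Klb did not pass the test, as given above.

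The windows of the genes that fell most, Klb and Fgfr4, are printed beside those of the ligands for comparison, also from RefSeq (GRCm38.p6) and on the plus strand, at chr5:65348161-65348410 and chr13:55152568-55152817. No motif of the 5 was found in them, so they hold no capitals.
Klb: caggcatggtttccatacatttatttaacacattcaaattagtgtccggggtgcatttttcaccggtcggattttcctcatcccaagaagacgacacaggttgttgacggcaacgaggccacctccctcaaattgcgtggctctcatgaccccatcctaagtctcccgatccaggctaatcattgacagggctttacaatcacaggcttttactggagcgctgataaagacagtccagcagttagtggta
Fgfr4: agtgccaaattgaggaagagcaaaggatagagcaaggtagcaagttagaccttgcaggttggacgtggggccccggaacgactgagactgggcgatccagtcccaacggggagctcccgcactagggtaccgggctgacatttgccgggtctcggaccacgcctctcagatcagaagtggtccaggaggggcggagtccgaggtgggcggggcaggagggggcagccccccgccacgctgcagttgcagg
They differ in base composition. The Klb window had a G and C content of 48% with 9 CpG pairs, and the Fgfr4 window 64% with 15, while the median of all windows was 52.4% with 6.

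**Figure D3:**
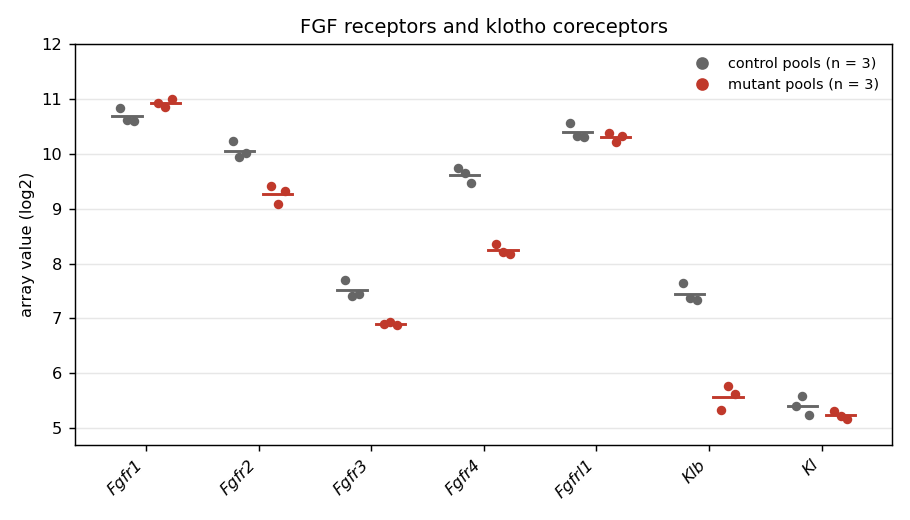
Array values (log2, vertical axis) of the FGF receptors and klotho coreceptors. Each point is 1 pool, with controls in grey and mutants in red, and horizontal bars are means of 3 pools. In Fgfr2, Fgfr3, Fgfr4 and Klb every mutant point is under every control point, while mutant points are just above controls in Fgfr1, and overlap with controls in Fgfrl1 and Kl.

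Epithelial and pancreatic genes fell beside these receptors. Of 19 general epithelial genes 16 fell and none rose, where 7.53% of all genes fell and 6.59% rose. The mean level of the 19 was 9.43 to 9.69 in the control pools and 8.59 to 8.68 in the mutant pools. The cell adhesion gene Cdh1 had a log2 change of -1.68. Of 11 genes of pancreatic progenitors 10 fell, and their mean level went from 9.59 to 9.86 down to 7.26 to 7.37. Of 9 acinar genes 8 fell, with mean levels of 9.45 to 10.40 and 6.28 to 6.63. Cpa1, which fell, is counted both here and among the progenitor genes. Genes listed as liver markers, of interest because Fgfr4 and Klb are high in hepatocytes, fell in 7 of 12. Their mean levels were 8.78 to 8.84 and 6.80 to 6.93. They do not mark liver cells alone, since the paper lists Hnf4a (log2 change -2.29) among pancreatic genes. The largest falls were those of Serpina6 and Ambp (log2 changes -5.39 and -4.97). The 5 that did not pass included Alb and Afp (log2 changes -0.50 and -0.12, limma adjusted p = 0.441 and 0.599). The control pools of Alb were widely spread, at 6.75, 7.13 and 8.50. Whether the pools held liver cells was not tested, nor was the part of any of these cell types in the decrease of the receptors.

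Gut mesenchyme genes moved beside the ligands. Of 10 tested, 9 rose and none fell, where 6.59% of all genes rose and 7.53% fell. The mean level of the 10 was 7.66 to 7.72 in the control pools and 9.13 to 9.41 in the mutant pools. Of 19 general mesenchymal genes, 7 rose and 3 fell, and the mean levels overlapped, at 9.83 to 9.97 and 9.84 to 9.98. Their median log2 change was 0.29, beside 0.03 for all genes, and the mean includes the large fall of Prrx1 (-2.49). Tcf21, which rose, is counted in both mesenchymal lists. Of 10 smooth muscle genes 7 rose and 1 fell. Of 11 endothelial genes 3 rose and none fell, with mean levels of 8.83 to 8.96 in controls and 9.19 to 9.36 in mutants. Of 9 mesothelial genes 4 fell and none rose, with mean levels of 7.74 to 8.08 in controls and 7.47 to 7.74 in mutants. Krt19, which fell, is counted here and among the epithelial genes. The part of any of these cells in the increase of Fgf10 and the other ligands was not tested.

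The remaining members did not pass. Fgfbp3, which releases FGF ligands from the matrix, measured 6.03, 6.24 and 6.16 in controls and 6.4, 6.32 and 6.5 in mutants, without overlap (log2 change 0.26, 95% interval 0.04 to 0.48, adjusted p = 0.117 from limma). Fgfbp1 and the adaptor Frs3 had overlapping groups, with log2 changes of -0.03 and -0.12.

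Among 15 genes by which cells answer to FGF signals, 9 rose, none fell and 6 did not pass, with a median log2 change of 0.45, where 6.59% of all genes rose with a median of 0.03 over all genes. This list, too, was chosen with earlier results of these data known. Etv5, a transcription factor induced by FGF and ERK signals, measured 8.07, 8.16 and 7.88 in controls and 10.27, 10.13 and 10.55 in mutants, a rise of 4.85-fold (2.28 ± 0.13 log2 units, limma adjusted p = 1.9e-06). Its relative Etv4 rose 2.90-fold, from 6.63, 6.38 and 6.21 to 7.87, 7.93 and 8.03 (1.54 ± 0.12 log2 units, adjusted p = 1.57e-05). In both genes the groups stood far apart.

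All 9 feedback inhibitors of the pathway had mutant pools above the control pools, as did 16.9% of all genes. Of the 9 inhibitors 7 rose, beside 6.59% of all genes. Dusp6, a phosphatase that switches off ERK, measured 9.07, 8.74 and 8.90 in controls and 10.35, 10.15 and 10.40 in mutants (1.4 ± 0.11 log2 units, limma adjusted p = 2.54e-05). The Sprouty genes Spry2 and Spry4 had log2 changes of 0.96 (adjusted p = 0.00248) and 0.81 (adjusted p = 0.000551), and Spred1 and Spred2 of 0.53 and 0.54. Spred3 and Il17rd rose by 0.30 and 0.45 on the log2 scale, but Spred3 lost its call when any 1 of 6 pools was left out (adjusted p up to 0.144) and Il17rd when any 1 of 5 was, mutant replicate 2 being the exception (adjusted p up to 0.159). Spry1 and Spry3 did not pass (log2 changes 0.42 and 0.28). Etv1 and the rapid response genes Egr1, Fos and Ier3 had log2 changes between -0.08 and 0.13, none past the test. These genes answer to other receptors that use ERK as well, and no FGF signal was measured.

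**Figure D4:**
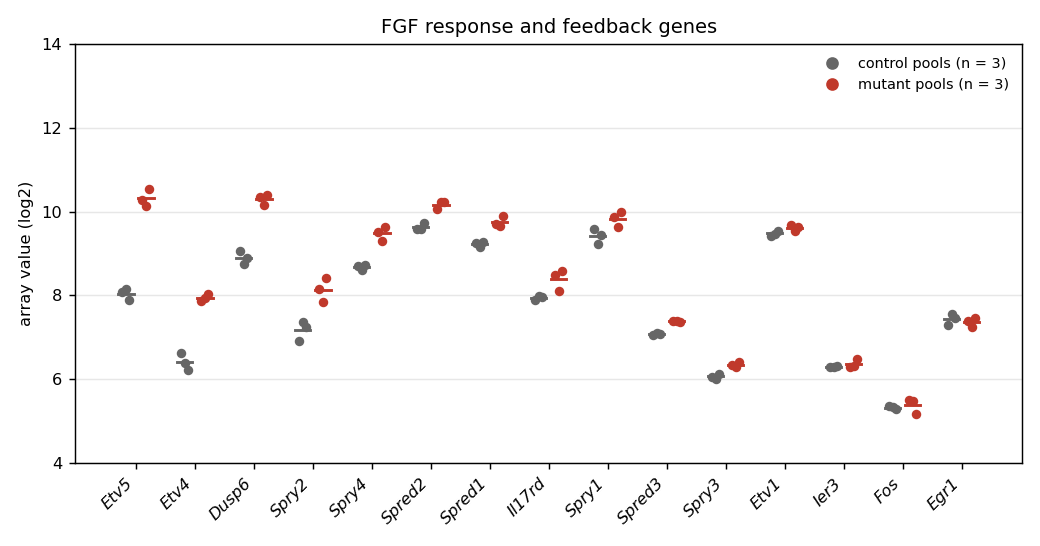
Array values (log2, vertical axis) of 15 FGF response and feedback genes, ordered by log2 change. Each point is 1 pool, with controls in grey and mutants in red, and horizontal bars are means of 3 pools. Etv5, Etv4 and Dusp6 show the widest gaps between genotypes, and Egr1, Fos and Ier3 show none.

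The machinery between receptor and nucleus moved less. Of 13 transduction genes 3 fell and none rose (23.1%, beside 14.1% of all genes), namely the adaptor Gab1 (log2 change -0.61), the exchange factor Sos2 (-0.47) and the regulatory PI3-kinase subunit Pik3r1 (-0.75). None of the 4 genes of the kinase cascade that were tested, Nras, Braf, Map2k1 and Map2k2, passed. Of 28 genes of heparan sulfate, the chain that holds ligand and receptor together, 3 rose and 2 fell (17.9%). The core protein gene Sdc2 rose 2.52-fold (1.33 ± 0.09 log2 units, limma adjusted p = 7.46e-06), and Sdc4 fell 1.84-fold (-0.88 ± 0.09 log2 units, adjusted p = 0.000114). Ext1 and Ndst3, which build and sulfate the chain, rose (0.58 and 0.56), Hs6st1, another sulfotransferase, fell (-0.56), and the 6 glypicans did not pass. Of 6 membrane proteins that bind FGF receptors, 3 passed (50%, beside 14.1% of all genes). Ncam1 rose (0.45), and Flrt2 (-0.64) and L1cam (-0.55) fell. L1cam lost its call when control replicate 1, control replicate 2, mutant replicate 1 or mutant replicate 3 was left out (limma adjusted p up to 0.109), and that of Ncam1 without mutant replicate 1 (limma adjusted p = 0.0717).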

How the data were processed

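RNA of 3 control and 3 mutant pools, each of 3 E13.5 pancreata, was hybridized to 1 array per pool, and groups and replicate numbers come from the sample titles. The authors deposited log2 expression values, 1 row per transcript cluster, normalized between arrays by a method not given in the sources used here. Of 35556 rows, 21789 with a single gene symbol in the platform annotation were kept and the row with the highest mean represented each gene, which left 19938 genes with no filter on dim rows. Array medians lay between 6.37 and 6.468, no detection calls were used, and the precision is limited by the number of arrays, 3 per genotype.

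Mutant was compared with control in R 4.3.3 with limma 3.58.1 (functions lmFit, then eBayes, no covariate, Benjamini-Hochberg over all genes, threshold 0.05), the tool named in the study's methods. The step was run on simulated data with planted changes and independent noise for each gene, which checks the code and not the calls made here. An exact permutation test of 3 pools against 3 cannot go below p = 0.1. The limma p-values set each change against the spread between pools, which eBayes draws toward that of all genes. Every FGF gene is accounted for, with each pool's values for those past the test and for the receptors. The members and gene lists were chosen with earlier results of these data known. Lists are described by counts and medians, and their mean level is the mean log2 value of the genes tested. Alternatives were a block for the replicate number, leaving out each pool, other centring or normalization, filters on dim genes, other use of rows, other priors, array weights and other thresholds. Motifs were sought in 250 bases before the start of genes. Tables and figures were made with pandas 2.3.3 and matplotlib 3.10.9 under Python 3.11.15.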

Additional observations from a re-analysis of the deposited data

How the results depend on the processing

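Of the 14 FGF genes past the test, 11 kept their call and direction in all alternatives that tested them, and Fgf1, Fgf8 and Fgf11 lost theirs in at least 1. Of the 18 others, Fgf5, Fgf18 and Fgfbp3 passed in at least 1, and no called gene changed direction. With 1 pool left out, 5 to 6 FGF genes were higher and 6 to 7 lower, and 1975 to 2741 of all genes passed. Among genes above the median level, a filter that leaves 20 of the 32 FGF genes out of the test, 4 FGF genes were higher and 5 lower. The median of the FGF members log2 change, -0.06, was -0.017 with arrays centred on their medians, -0.10 with arrays centred on the housekeeping genes, -0.028 after quantile normalization, -0.11 among genes above the median level, -0.0015 with array weights, and -0.076 to -0.015 with 1 pool left out, always close to 0. Array weights raised the genes past the test to 5447 of all genes and to 15 heparan sulfate genes. The number of all genes called was 1779 when every row was fitted, and 1745 at an adjusted p under 0.01. The balance of directions over all genes moved with the scaling, from 1313 higher and 1502 lower to 1615 and 1366 with arrays centred on their medians, to 1020 and 1676 with arrays centred on the housekeeping genes, and to 3025 and 2422 with array weights. The housekeeping genes are no fixed reference here, since 3 of the 12 tested rose and 1 fell (33.3%, beside 14.1% of all genes). Of the receptor partners, 1 passed when every row was fitted, 1 at an adjusted p under 0.01, and 1 to 3 with 1 pool left out.

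The replicate number as a block left 6 FGF genes higher and 6 lower, without Fgf1 and Fgf11, 8 response and feedback genes, and 2285 for all genes called. Pools of the same number did not deviate together (r of their deviations from the group means across genes 0.014, -0.154 and -0.0464). Pools of unlike number gave r from -0.186 to 0.195. With 3 pools per genotype, these values cannot tell whether the numbers pair the pools. The cause of the lost calls was not tested. No detection calls were used, so low array values may lie near background, where changes are understated.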
